A study of Homo sapiens with 22 samples.

Results

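The genes described here were 9 secreted signals of inflammation, the chemokines CXCL1, CXCL2, CXCL3, CXCL6, CXCL8, CCL2 and CCL7 and the interleukin 1 ligands IL1A and IL1B, out of 33694 genes counted. They were taken by gene symbol, with earlier results of these data known, so that they are not a blind choice. Their transcripts were followed in BJ cells, an established line of human foreskin fibroblasts, through reprogramming in microfluidic channels with non-modified mRNAs that encode POU5F1, SOX2, KLF4, MYC, LIN28 and NANOG. The control cells of day 0 (D0) had not been transfected, and the cells of D3, D5, D7, D9, D11, D13 and D15 had entered a course of 8 mRNA transfections in a reprogramming medium that was exchanged for a pluripotency medium from day 9. Each of the 8 days was covered by pools A and B, each of cells from 4 chips of the same line that were frozen and thawed as aliquots. The pools are written here as D5A and D5B.

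Chemokines are small secreted proteins that draw leukocytes along a gradient by binding receptors on the leukocyte surface. CXCL1, CXCL2, CXCL3, CXCL6 and CXCL8 carry the Glu-Leu-Arg (ELR) motif and attract neutrophils through CXCR1 and CXCR2, whereas CCL2 and CCL7 attract monocytes through CCR2. IL1A and IL1B bind IL1R1 and its partner IL1RAP, and the NF-kB factors that this receptor activates in fibroblasts are known to switch on chemokine genes. The same secreted factors belong to the senescence-associated secretory phenotype.

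The 22 libraries of the 16 pools held 44197 barcodes, of which 41975 passed the filters on cells, or 571 to 6142 per pool. The median was 23717 to 80168 UMIs (unique molecular identifiers, 1 for each captured transcript) per cell. The D0 cells were fibroblast-like, with 12 somatic markers such as COL1A1 summing to 21162 and 21663 CPM (UMI counts scaled to the total of a pool), against 2415 and 2975 CPM on D15, when 11 pluripotency markers such as DPPA4 reached 4775 and 4500 CPM. In 6 pools, 2 libraries were made from separate aliquots, and these could differ widely, as given for D5 and D9 below. Shares and co-detection were computed on both libraries of a pool together. The level of NME2, a gene that overlaps another gene, ran from 6.08 to 457 CPM between libraries, and whether overlapping genes were counted alike in all libraries was not tested. Of 42998 distinct barcode sequences, 1185 occurred in 2 or more libraries.

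The 9 genes lie in 3 clusters of the genome (GRCh38). CXCL8, CXCL6, CXCL1, CXCL3 and CXCL2 lie within 358.678 kb on chromosome 4 (start 73740519, end 74099196), which holds 10 protein-coding genes, CXCL5, PF4, PF4V1 and PPBP among them. The first 3 are read from the plus strand and the last 2 from the minus strand. CCL2 (start 34255274, end 34257208) and CCL7 (start 34270221, end 34272242) lie side by side on the plus strand of chromosome 17. IL1A (start 112773925, end 112784493) and IL1B (start 112829751, end 112836816) lie on the minus strand of chromosome 2.

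The promoters of the 5 CXC genes are shown because all of them hold the letters GGAATTTCC, a site of the kind that NF-kB binds. The sequences below are 69 bases from the RefSeq promoter windows of GRCh38.p14, 5′ to 3′ on the strand of the gene, and the capitals mark these letters. The windows are at chr4:73740448-73740516 (plus strand, CXCL8), chr4:73836559-73836627 (plus, CXCL6), chr4:73869285-73869353 (plus, CXCL1), chr4:74038729-74038797 (minus, CXCL3) and chr4:74099234-74099302 (minus, CXCL2).
CXCL8: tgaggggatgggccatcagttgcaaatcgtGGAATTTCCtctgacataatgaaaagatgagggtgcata
CXCL6: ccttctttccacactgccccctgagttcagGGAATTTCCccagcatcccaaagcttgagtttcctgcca
CXCL1: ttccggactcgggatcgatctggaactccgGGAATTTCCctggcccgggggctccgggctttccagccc
CXCL3: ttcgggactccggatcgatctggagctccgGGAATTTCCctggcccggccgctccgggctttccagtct
CXCL2: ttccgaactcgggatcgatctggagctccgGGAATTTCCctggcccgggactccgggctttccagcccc

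The letters began 91 bases before the start of the transcript in CXCL8, 89 in CXCL6, 78 in CXCL1, 78 in CXCL3 and 77 in CXCL2. Both strands were searched in windows from 250 bases before to 50 bases after each start, and 162 of 35116 windows (0.461%) held them. A window was in hand for 8 of the 9 genes, all but CCL2, and those of CCL7, IL1A and IL1B did not hold these letters. The AP-1 type letters TGANTCA were in the windows of CXCL8, CCL7 and IL1A (7.71% of all windows). The letters TATAAA (11.5% of all windows) began 31 bases before the start in CXCL8 and 30 in CCL7. For IL1A they were in 1 of its 2 windows, 239 bases before the start. Over the 69 bases, CXCL1 matched CXCL3 at 89.9% and CXCL2 at 81.2% of positions, whereas CXCL8 matched CXCL1 at 37.7%. CXCL6 matched CXCL5, a gene of the same cluster whose window also held GGAATTTCC, at 95.7%. CXCL1, CXCL2 and CXCL3 are close copies of each other in their transcripts too, so reads could be split between them or lost, and their separate levels are uncertain to that extent.

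All 9 genes had their highest mean level on D5. Summed over the 9 genes, transcripts stood at 17.7 and 17.4 CPM in pools A and B of D0, 124 and 83.5 at D3, 773 and 544 on D5, 220 and 293 at D7, 332 and 194 on D9, 47.3 and 114 at D11, 49.7 and 35.1 on D13, and 25.2 and 37.7 at D15. The pools of D5 lay above every other pool, and those of D0 below every other pool. In sums over a pool, fewer cells with a transcript and less of it per cell cannot be told apart, and shares of cells are given further on.

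**Figure D1:**
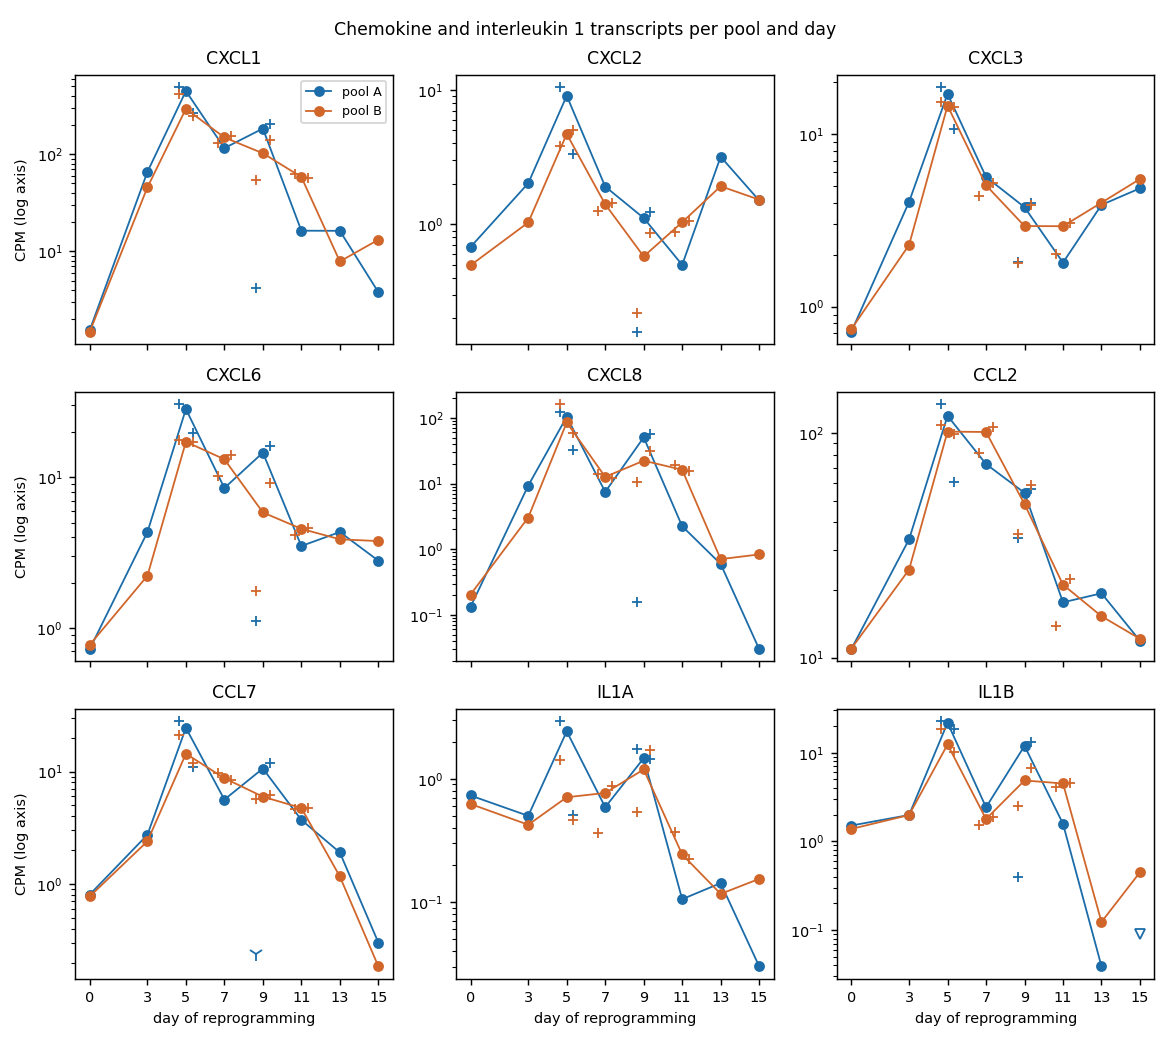
Level of each gene in CPM (vertical axis, logarithmic) by day of reprogramming, filled circles joined by lines for pool A (blue) and pool B (orange). Plus signs are the separate libraries of pools that had 2, the open triangle (IL1B, D15A) and the 3-armed mark (CCL7 in a library of D9A) stand at the limit set by 3 UMIs where none was counted. The mean of both pools is highest on D5 for each gene, and the plus signs of D9 lie far apart for CXCL1 and CXCL8.

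CXCL1, a neutrophil attractant also known as a growth factor of melanoma cells, was the most abundant of the 9 from D3 to D9. In pools A and B it was at 1.54 and 1.48 CPM on D0, 65.6 and 45.5 at D3, 447 and 293 on D5, 115 and 149 at D7, 183 and 102 on D9, 16.3 and 58.2 at D11, 16.2 and 7.86 on D13, and 3.80 and 13.1 at D15. D5 stood above D9 without overlap, D9 and D7 overlapped each other, and D15 was still above D0 in both pools. CXCL8 (interleukin 8), the best known neutrophil attractant, was at 0.132 and 0.204 CPM on D0, 9.32 and 3.04 at D3, 104 and 85.3 on D5, 7.46 and 12.6 at D7, 50.5 and 22.3 on D9, 2.24 and 16.2 at D11, 0.596 and 0.705 on D13, and 0.0301 and 0.833 at D15. Its D9 pools lay above those of D7 and below those of D5, without overlap. The level of 0.0301 CPM in D15A was a single UMI.

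The levels of D9 rested on part of the libraries. In the 2 libraries of D9A, CXCL8 stood at 0.159 and 56.6 CPM, CXCL1 at 4.20 and 205 and IL1B at 0.397 and 13.3. In those of D9B, CXCL8 stood at 10.7 and 31.7 CPM, CXCL1 at 54.1 and 141 and IL1B at 2.52 and 6.75. The first library of D9A held 143 cells and that of D9B 889, and in both pools the second library was the higher one for these 3 genes. NME2 stood at 426 and 6.32 CPM in the libraries of D9A and at 79.7 and 7.97 in those of D9B, the reverse order. On D5, CXCL8 stood at 123 and 32.3 CPM in D5A and at 163 and 58.0 in D5B, and CXCL1 at 494 and 267 in D5A and at 421 and 248 in D5B. The sum of the 9 genes was 865 and 424 CPM in D5A and 771 and 464 in D5B, the first library being the higher one each time. With only the first libraries of such pools, the log2 fold change from D7 to D9 was -0.83 for CXCL8 and -0.33 for IL1B, in place of 1.82 and 1.96 with both. The part that the aliquots have in the levels of D9 was not tested.

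The other genes differed between libraries too. In D9A, CXCL6 stood at 1.11 and 16.2 CPM, CCL7 at 0 and 11.9, CXCL3 at 1.82 and 4.01 and CCL2 at 33.9 and 56.6. In D9B, CXCL6 stood at 1.77 and 9.16 CPM, CXCL3 at 1.79 and 3.86, CCL2 at 35.6 and 58.5 and CCL7 at 5.70 and 6.19. CXCL2 stood at 0.159 and 1.23 CPM in D9A and at 0.219 and 0.868 in D9B. The second library of D9 was thus the higher one for these 5 genes, by little for CCL7 in D9B. IL1A stood at 1.74 and 1.44 CPM in D9A, where the first library was the higher one, and at 0.536 and 1.72 in D9B. In D5A, CCL2 stood at 135 and 60.7 CPM, CCL7 at 28.0 and 10.9, CXCL2 at 10.6 and 3.32 and IL1A at 2.93 and 0.506. In D5B, IL1A stood at 1.42 and 0.460 CPM and CCL2 at 109 and 98.9, again with the first library higher, whereas CXCL2 stood at 3.81 and 5.02.

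CXCL6, CXCL3 and CXCL2 stood below CXCL1 and CXCL8 on D5, though not on every day, and ended differently. CXCL6, which acts on CXCR1 and CXCR2, was at 0.726 and 0.775 CPM on D0, 4.34 and 2.22 at D3, 28.4 and 17.2 on D5, 8.50 and 13.2 at D7, 14.6 and 5.85 on D9, 3.50 and 4.56 at D11, 4.34 and 3.88 on D13, and 2.80 and 3.78 at D15. Both D15 pools of CXCL6 lay above both D0 pools. CXCL3 was at 0.714 and 0.741 CPM on D0, 4.05 and 2.28 at D3, 17.1 and 14.6 on D5, 5.65 and 5.05 at D7, 3.77 and 2.93 on D9, 1.80 and 2.93 at D11, 3.89 and 4.01 on D13, and 4.85 and 5.49 at D15. After D5 the mean of CXCL3 was lowest on D11, and its D15 pools overlapped those of D7. CXCL2 was at 0.678 and 0.496 CPM on D0, 2.02 and 1.03 at D3, 9.06 and 4.70 on D5, 1.91 and 1.41 at D7, 1.12 and 0.578 on D9, 0.4998 and 1.04 at D11, 3.19 and 1.92 on D13, and 1.51 and 1.53 at D15. Its D13 pools lay above those of D11 and D15 and below those of D5 without overlap.

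CCL2 (MCP-1), a main attractant of monocytes, was the gene with the highest level before transfection. It was at 10.9 and 10.96 CPM on D0, 33.6 and 24.6 at D3, 119 and 101 on D5, 72.8 and 101 at D7, 54.1 and 48.2 on D9, 17.6 and 21.1 at D11, 19.3 and 15.3 on D13, and 11.9 and 12.1 at D15. Pool B stood at 101 CPM on both D5 and D7, and both D15 pools lay just above both D0 pools. CCL7 (MCP-3), its neighbour, was at 0.804 and 0.775 CPM on D0, 2.74 and 2.40 at D3, 24.4 and 14.4 on D5, 5.62 and 8.72 at D7, 10.6 and 5.97 on D9, 3.72 and 4.74 at D11, 1.90 and 1.16 on D13, and 0.301 and 0.185 at D15. CCL7 ended below its level of D0 in both pools.

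IL1B, the interleukin 1 that is secreted after cleavage, was at 1.51 and 1.38 CPM on D0, 1.98 and 1.98 at D3, 21.8 and 12.4 on D5, 2.42 and 1.78 at D7, 11.9 and 4.86 on D9, 1.58 and 4.49 at D11, 0.0389 and 0.123 on D13, and 0 and 0.447 at D15. The D5 pools of IL1B lay above all others, and those of D13 and D15 below D0. IL1A, which can act from the cell surface or from dying cells, was at 0.732 and 0.625 CPM on D0, 0.501 and 0.424 at D3, 2.43 and 0.709 on D5, 0.588 and 0.768 at D7, 1.47 and 1.19 on D9, 0.106 and 0.243 at D11, 0.143 and 0.116 on D13, and 0.0301 and 0.154 at D15. Its D5 pools overlapped those of D0, D7 and D9, so that D5 cannot be called its peak beyond the spread of the pools.

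Counts per pool were compared between days with edgeR over 12944 genes detected in at least 5% of cells, and a gene was called at an adjusted p below 0.01 (Benjamini-Hochberg) and a log2 fold change beyond 0.25. Of the 9 genes, 7 passed this filter. The share was the mean over days, each day with the same weight. IL1B lay just inside at 5.23%, CXCL2 (3.94%) and IL1A (2.13%) lay outside, and over all cells without weights IL1B was in 4.32%, so that its test rests on this weighting. Since a gene can pass it through the days on which it is high, counts over the 7 are no more than a description. From D0 to D3, 6 of the 7 rose, where 13.1% of all tested genes were called higher, and the median log2 fold change was 2.06 over the 7 and -0.06 over all genes. CXCL1 rose by 5.15 (log2, SE 0.69, adjusted p = 0.000133) and CXCL8 by 5.13 (SE 1.02, adjusted p = 0.00188), against 2.07 for CXCL6, 2.06 for CXCL3, 1.66 for CCL7 and 1.37 for CCL2. The calls of CCL7, CXCL6 and CXCL8 were lost without D0A and without D0B (adjusted p between 0.0207 and 0.0281), and that of CXCL6 also without D3A (adjusted p = 0.0196), which left between 3 and 6 genes called. CXCL8 was at 4.20 to 5.71 over these fits, and its lowest value was that without D3A. IL1B did not pass, at 0.42 (SE 0.65, adjusted p = 0.638). With only the pools of D0 and D3 in the fit, none of the 12944 genes was called.

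From D3 to D5, 4 of the 7 rose again, against 3.39% of all tested genes. These were CCL7 (log2 2.85, SE 0.35), CXCL6 (2.75, SE 0.43), CXCL3 (2.28, SE 0.28) and CCL2 (1.87, SE 0.19). CXCL8 (3.91, SE 0.90), IL1B (3.04, SE 0.68) and CXCL1 (2.67, SE 0.61) had differences of like or larger size. Their SE in the edgeR fit of all pools was larger, and they missed the limit with adjusted p of 0.0192, 0.0165 and 0.0176. DESeq2 called CXCL1 (adjusted p = 4.9e-05) and CXCL8 (adjusted p = 0.00643), edgeR without the filter on cells called IL1B (adjusted p = 0.00763), and edgeR without the filter on genes called all 3. The call of CXCL6 was lost without D3B and without D5A (adjusted p of 0.0215 and 0.0149). Against D0, the mean of D3 to D7 was higher for 6 of the 7, where 19.6% of tested genes were called higher and the medians were 3.08 over the 7 and -0.02 over all. The rises were 6.66 for CXCL8 (SE 1.04), 6.44 for CXCL1 (SE 0.70), 3.54 for CXCL6, 3.08 for CCL7, 3.06 for CXCL3 and 2.49 for CCL2, and IL1B did not pass at 1.44 (adjusted p = 0.0489). These 6 calls were the same in number with each pool left out.

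After D5 few single steps passed. From D5 to D7, CXCL3 fell by 1.57 (SE 0.27, adjusted p = 0.0047), 1 of 7 where 0.247% of tested genes were called lower, and it did not pass with any of the 4 pools left out (log2 -1.66 to -1.49, adjusted p between 0.0231 and 0.0529). CXCL8 (-3.24, SE 0.87, adjusted p = 0.0571) and IL1B (-3.01, SE 0.68, adjusted p = 0.0242) had larger differences. From D7 to D9 edgeR called none of the 7 (7.5% of tested genes in either direction), though 4 had an unadjusted p under 0.05 (3512 of all 12944 genes) and DESeq2 called 1 (1703 of all). From D9 to D11, CCL2 fell by 1.42 (SE 0.19, adjusted p = 0.000641), 1 of 7 where 1.27% of tested genes were called lower, a call lost without D9A (adjusted p = 0.0152) and without D11A (adjusted p = 0.0138). From D11 to D13 none was called by edgeR and 2 by DESeq2 (0.147% of tested genes by edgeR, 492 genes by DESeq2), with 5 at an unadjusted p under 0.05 (2123 of all) and IL1B at -4.94 (SE 0.84, adjusted p = 0.0174). From D13 to D15 again none was called by edgeR and 1 by DESeq2 (0.085% of tested genes by edgeR, 657 genes by DESeq2), with 2 at an unadjusted p under 0.05 (3004 of all).

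Set against the mean of D3 to D7, the mean of D9 to D15 was lower for all 7 tested genes, where 22.5% of tested genes were called lower and the medians were -1.96 over the 7 and -0.03 over all. CXCL8 fell by 2.51 (SE 0.46), CXCL1 by 2.41 (SE 0.31), IL1B by 2.25 (SE 0.38), CCL7 by 1.96 (SE 0.19), CCL2 by 1.66 (SE 0.10), CXCL6 by 0.97 (SE 0.22) and CXCL3 by 0.89 (SE 0.14). The call of CXCL6 was lost without D7B (adjusted p = 0.0103). With each pool left out in turn IL1B was at -4.26 to -2.07 and CXCL8 at -3.52 to -2.19, and both lowest values were those without D15B, which left D15A with no UMI of IL1B and 1 of CXCL8 as the only pool of that day. Between D0 and D15, 53.1% of tested genes were called, and of the 7 genes CXCL3 (2.75, SE 0.29), CXCL1 (2.43, SE 0.62) and CXCL6 (2.06, SE 0.44) were higher on D15 and CCL7 (-1.85, SE 0.44) lower. The difference of CXCL1 was 3.07 without D15A. Without D15B it was 1.25 (adjusted p = 0.11) and that of CCL7 -1.47 (adjusted p = 0.0537), and the calls of CXCL1 and CXCL6 were also lost without D0A and without D0B, that of CXCL6 without D15B and that of CCL7 without D0A, so that 1 to 4 calls were made. CCL2 differed by 0.05 (SE 0.19).

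CXCL2 and IL1A, which the filter left out, were examined in a fit over all genes counted. There CXCL2 was higher in the mean of D3 to D7 than on D0 by 2.11 (SE 0.35, adjusted p = 1.84e-05; 12.5% of genes in this fit were called higher) and then fell by 1.19 in the mean of D9 to D15 (SE 0.20, adjusted p = 1.44e-05; 17.4% of genes called lower). IL1A was at 0.19 (SE 0.35, adjusted p = 0.821) in the first of these comparisons, fell by 1.88 in the second (SE 0.26, adjusted p = 4.24e-07) and stood on D15 against D0 at -2.93 (SE 0.57, adjusted p = 7.37e-05). The D15 level of IL1A rested on 1 UMI in D15A and 10 in D15B, against 122 in D0A and 92 in D0B. With 2 pools per day, all p-values measure the spread between pools of 1 line.

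The rise was seen in the share of cells as well as in the sums. With every cell thinned to 5000 UMIs, CXCL1 was detected in 0.488% of D0A cells and 0.626% of D0B cells, in 43.7% (95% exact binomial interval 41.4 to 46.0%) of D5A and 33.3% (30.02 to 36.6%) of D5B, and in 0.350% and 2.70% of cells in the pools of D15. CCL2 was detected in 4.54% and 4.83% of cells on D0, 29.4% and 27.2% on D5 and 2.98% and 3.84% on D15. CXCL8 was detected in 0.0651% and 0.129% of cells on D0, 12.6% (11.1 to 14.2%) and 6.87% (5.23 to 8.83%) on D5, 5.28% and 2.84% on D9, and none of 571 cells of D15A, where the exact interval reaches 0.644% and 3 counts would be 0.525%, both of which limit cells with a UMI at this depth. CXCL1 and CCL2 were thus the most widespread on D5, and the pools of D5 lay above those of D0 for these 3 genes. IL1B was detected in 0.619% and 0.950% of cells on D0, 5.603% and 4.05% on D5, 2.93% and 1.81% on D9, and 0 and 0.285% on D15. The means of the other genes on D5 were 7.45% ± 2.03 (SD, n = 2 pools) for CXCL6, 7.21% ± 1.17 for CCL7, 4.84% ± 0.765 for CXCL3, 2.46% ± 0.526 for CXCL2 and 0.802% ± 0.787 for IL1A. These shares depend on the depth. CXCL1 was in 25.2% of D5 cells (mean of the pools) at 2000 UMIs per cell, 52.9% at 10000 and 85.0% without thinning, and CCL2 without thinning was in more cells on D7 (81.4%) than on D5 (69.2%). IL1A was highest on D9 in place of D5 at 2000 UMIs and without thinning. Intervals cover counting error only.

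**Figure D2:**
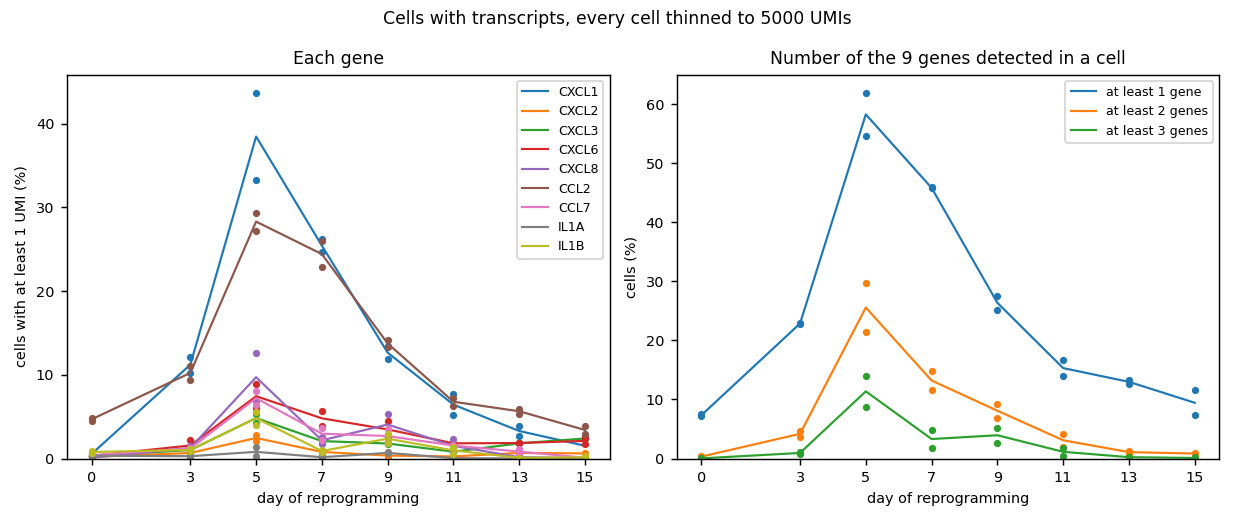
Percentage of cells with at least 1 UMI of each gene (left) and with UMIs of at least 1, 2 or 3 of the 9 genes (right), by day, every cell thinned to 5000 UMIs. Points are pools and lines join the means of the 2 pools per day. CXCL1 and CCL2 are highest from D3 to D13, and at this depth the mean of each gene is highest on D5.

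A few cells held a large part of the transcripts. In D5A the 18 cells (1%) with the most UMIs of a gene held 45.1% of all CXCL8 UMIs, 56.9% of IL1B, 19.2% of CXCL1 and 18.4% of CCL2. In D5B the corresponding 9 cells held 70.6% of CXCL8, 60.7% of IL1B, 30.1% of CXCL1 and 19.7% of CCL2. This share rises as fewer cells have a gene, and these genes were in 222 (CXCL8), 99 (IL1B), 772 (CXCL1) and 519 (CCL2) cells of D5A, so that no order between genes is read from it. The highest numbers in 1 cell of D5, of 5000 UMIs, were 97 for CXCL1 and 59 for CXCL8.

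Some single cells held several of the 9 transcripts. Cells with UMIs of at least 2 of the 9 genes were 0.324% ± 0.0905 (SD, n = 2 pools) of cells on D0, 4.19% ± 0.771 at D3, 25.6% ± 5.79 on D5, 13.2% ± 2.22 at D7, 8.10% ± 1.70 on D9, 3.09% ± 1.57 at D11, 1.08% ± 0.213 on D13 and 0.848% ± 0.209 at D15. Cells with at least 3 were 11.4% ± 3.76 on D5 and 3.94% ± 1.81 on D9. The product of the genes' shares gives the number of cells if each gene were spread without regard to the others. Set against it, cells with at least 3 genes were 1.71 and 2.25 times as many in the pools of D5. On D9 they were 7.38 and 8.89 times as many and on D11 17.3 and 19.4 times. On D3 they were 7.62 and 8.38 times as many, on D7 2.19 and 3.48 times and in D13A 9.91 times, from 3 cells. On D0 they were 17.9 and 10.2 times as many, from 2 cells and 1 cell. D13B and the pools of D15 are not given here. The ratio was thus lower on D5 and D7, when CXCL1 and CCL2 were most widespread, than on the other days given. It can also exceed 1 where libraries or kinds of cells with different shares are summed, and this part was not tested. On D5 the ratio was close to 1 for at least 2 genes (0.894 and 0.983).

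The pairs differed in how far they shared cells beyond the product of their shares. On D5, CXCL8 and IL1B occurred together in 61 cells where 14.7 were given by the product, a ratio of 4.15, and CXCL6 and CXCL8 in 88 where 23.1 were given (3.81). The neighbours CCL2 and CCL7 were together in 131 cells against 55.9 (2.34), and CXCL1 and CXCL8 in 218 against 116 (1.89). CXCL1 and CCL2, the most widespread pair, were together in 390 cells against 301 (1.30), and IL1A and IL1B, at the highest ratio, in only 9 (6.31). All ratios of D5 were above 1 with both pools summed, and the ratio of a pair that includes a widespread gene is bounded by that gene's share. On D9 and D11 the ratio of CXCL8 and IL1B was 12.04 (57 cells) and that of CXCL1 and CXCL8 6.24 (155 cells). These cells share their libraries, and no test was made on them.

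**Figure D3:**
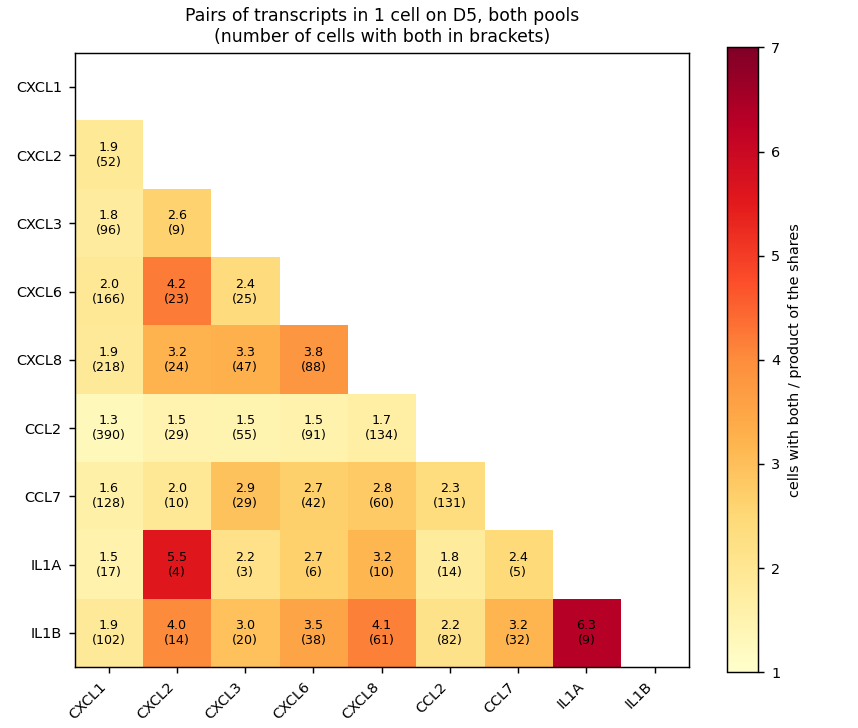
Number of D5 cells with both genes of a pair over the number that the product of their shares gives, pools D5A and D5B together, every cell thinned to 5000 UMIs. The colour and the upper number give the ratio and the number in brackets the cells with both genes. CXCL8 with IL1B (4.1, 61 cells) and CXCL6 with CXCL8 (3.8, 88 cells) exceed CXCL1 with CCL2 (1.3, 390 cells).

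Seen from CXCL8, the cells that held it had CXCL1 and IL1B at higher shares than the cells that did not. In D5A, 81.1% of the 222 cells with CXCL8 had CXCL1, against 38.3% of other cells, and in D5B 67.9% of 56 cells against 30.7%. On D9 the gap was wider than on D5. Shares were 73.9% of 92 cells against 10.1% in D9A and 63.8% of 47 cells against 10.3% in D9B. This came with a lower share in the other cells, not a higher one in the cells with CXCL8. On D3 the shares were 75.9% of 29 cells against 9.23% (D3A) and 53.2% of 47 against 11.7% (D3B). On D7 they were 45.2% against 25.8% (D7A) and 73.4% against 23.4% (D7B). On D11 they were 36.4% against 4.96% (D11A) and 65.3% against 6.33% (D11B). IL1B was in 32.6% of the cells with CXCL8 against 1.27% of other cells in D9A, and in 27.7% against 1.06% in D9B. On D5 and D9, in all 4 pools, the cells with CXCL8 had the higher share of CXCL1 and of IL1B.

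The cells with at least 2 of the 9 genes were compared with the cells that had none, within each pool. NF-kB feedback genes, many of which NF-kB itself induces, were higher in the former by 1.16 ± 0.37 (log2 of summed CPM, SD, n = 6 pools of D3 to D7) and by 1.60 ± 0.44 in 6 pools of D9 to D15. Each was higher in 6 of 6 pools (exact sign-flip permutation test, 2-sided, p = 0.03125, the smallest that 6 pools allow, adjusted p = 0.0375 over 12 tests). In D3 to D7 cells, NFKBIA, the first inhibitor that NF-kB restores, was at 163 against 52.4 CPM, IER3 at 287 against 138, SOD2 at 128 against 41.5 and TNFAIP3 (A20), which ends the signal, at 7.91 against 0.993, each higher in 6 of 6 pools. NFKBIB was at 15.4 against 21.7 CPM and CYLD at 9.70 against 10.2, each higher in 1 of 6 pools. Such a split is not particular to these genes. Genes of other lists, VIM, KRT10, CD68 and RELB among them, were also higher in 6 of 6 pools, and others such as MKI67 in 0 of 6. The share over all genes is not given here. D13A with 17 such cells and D15A with 4 were left out of these comparisons. Cells that had none after thinning can still hold these transcripts. Without thinning, CXCL1 alone was in 34.0% to 85.0% of cells over the days of D3 to D7. Over those of D9 to D15 it was in 8.70% to 48.7% (means of the pools). In D5A, 673 of 1767 cells counted as having none. How far this changes the differences, within or between the periods, was not tested without thinning.

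Somatic markers were higher in the cells with at least 2 of the genes by 0.45 ± 0.10 from D3 to D7 and by 1.46 ± 0.53 from D9 to D15, in 6 of 6 pools each. The later difference was larger by 1.01 (exact permutation test of pools between periods, 2-sided, p = 0.00216, adjusted p = 0.026), and by 0.51 when 1 gene was enough for a cell to count. This p is the smallest that 12 pools allow, as the periods did not overlap (highest 0.57 early, lowest 0.72 late). All tests between the periods count the 2 pools of a day as separate replicates, though the periods differ by days. Their p can thus be too small. The marker levels also changed between the periods. Pluripotency markers summed to 228 to 886 CPM on D3 to D7 and to 2442 to 4637 CPM on D9 to D15 (means of the days). The early pools thus held little of these markers by which cells could differ. The part of this in the larger later differences was not tested. The later pools were D9A, D9B, D11A, D11B, D13B and D15B. Among the somatic markers THY1 went the other way from D3 to D7, at 535 against 694 CPM and higher in 0 of 6 pools. Pluripotency markers were lower by 0.78 ± 0.23 and 1.70 ± 0.75, in 6 of 6 pools each, and the later difference was larger in size, at -0.92 (exact permutation test, p = 0.026, adjusted p = 0.0375), a call lost when 1 gene was enough (-0.19) and at 10000 UMIs per cell (-0.49). With any 1 pool left out these differences between the periods were 0.88 to 1.15 for somatic and -1.12 to -0.75 for pluripotency markers. Both missed 0.05 once adjusted over the 12 tests (exact permutation test, adjusted p between 0.0519 and 0.075). The unadjusted exact p was 0.00433 for somatic and 0.00866 to 0.0519 for pluripotency markers. As the somatic values of the periods did not overlap, the p of 0.00433 is set by the number of splits of the pools that remain. The miss of the somatic difference after adjustment is thus no measure of a weaker difference. Cell cycle genes were lower by 0.70 ± 0.29 and 0.97 ± 0.28, in 6 of 6 pools each, with no difference between the periods that passed (exact permutation test, p = 0.156). Each difference within a period had p = 0.03125 (exact) and adjusted p = 0.0375, read against 0.05. With 1 pool left out, the smallest p that the exact test allows in the period of that pool is 0.0625, so that none there can pass. The differences of the other period kept p = 0.03125 (exact) and missed 0.05 once adjusted over the 12 tests.

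**Figure D4:**
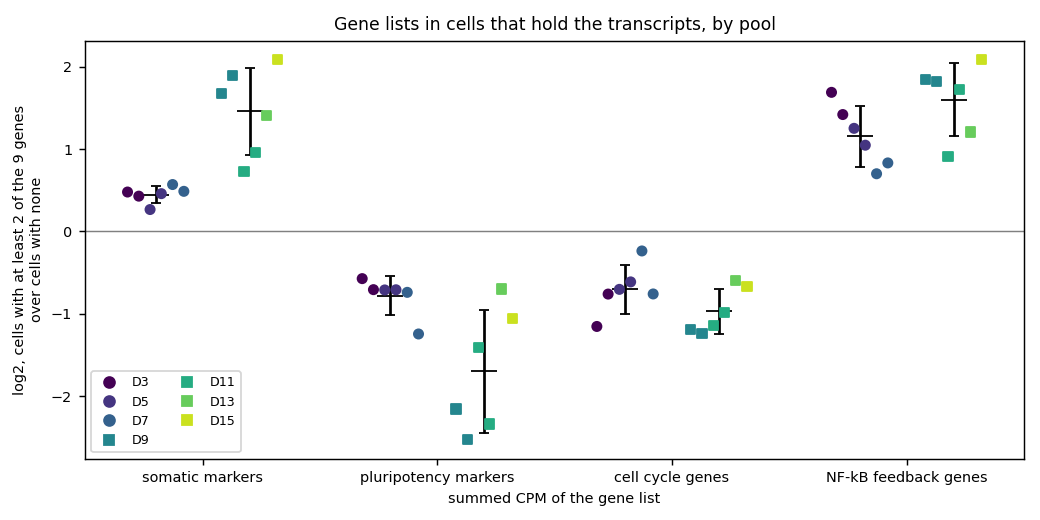
Log2 ratio of the summed CPM of 4 gene lists in cells with at least 2 of the 9 genes over cells with none, 1 point per pool (circles D3 to D7, squares D9 to D15, coloured by day). Bars are the mean and SD over 6 pools. Somatic markers and NF-kB feedback genes lie above 0 and pluripotency markers and cell cycle genes below 0 in each of the 12 pools.

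Leukocytes make the same signals, so their markers were examined beside these cells. The summed level of 10 immune cell markers was between 7.67 and 90.6 CPM over the 16 pools, highest on D0, where CD68, a lysosomal protein that fibroblasts also make, gave 88.2 CPM in D0A and 87.3 in D0B. On D15 CD68 gave 0.874 CPM in D15A and 1.42 in D15B, of sums of 9.04 and 9.74. From D3 to D7, CD68 was at 45.5 CPM in the cells with at least 2 of the 9 genes and at 18.3 CPM in those with none. Of the other 9, CD14 (0.630 against 0.467 CPM) and CSF1R (0.0636 against 0.0551) had the higher mean in the former, PTPRC (CD45, 0.318 against 1.58), TYROBP, FCER1G, CD79A and LYZ the lower, and CD3E and HLA-DRA had no UMI in either. From D9 to D15 the means were higher in the former for CD68 (23.9 against 2.78 CPM), TYROBP (4.12 against 2.37), CD14 (3.75 against 1.46), FCER1G (1.45 against 0.666) and PTPRC (0.206 against 0.185), with 1 to 5 UMIs for each of these but CD68. CD79A (0.775 CPM in cells with none), HLA-DRA (0.385), CSF1R (0.0496), LYZ (0.0442) and CD3E (0.0179) had no UMI in the former. The part of leukocytes in the results was not tested.

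The late cells were also split by their own markers. Cells of D9 to D15 were called somatic-high if they had at least 2 more somatic than pluripotency markers, and pluripotency-high in the reverse case, a rule chosen after the values were seen, so that only levels are given and no test. Between 5.08% and 28.9% of cells per pool lay between both. CXCL1, CXCL2, CCL2 and CCL7 were higher in somatic-high cells in 8 of 8 pools, IL1B in 7, CXCL8 in 6 and IL1A in 5. In D9A, CXCL1 stood at 388 CPM in somatic-high and 8.37 CPM in pluripotency-high cells and CXCL8 at 108 and 1.49 CPM, and in D15B CXCL1 stood at 102 and 2.66 CPM. Over the 8 pools, CXCL1 ran from 24.0 to 388 CPM (median 68.8) in somatic-high and from 1.12 to 9.89 (median 5.62) in pluripotency-high cells. CXCL8 ran from 0 to 108 CPM (median 5.26) and from 0.0350 to 1.49 (median 0.366). CCL2 was still at 90.0 CPM in the somatic-high cells of D15A and 64.8 CPM in those of D15B, against 3.81 and 4.77 CPM in pluripotency-high cells. Somatic-high cells were 11.03% and 13.5% of the cells of these pools.

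CXCL6 and CXCL3 lay on different sides on the earlier and the later days. On D9 and D11 CXCL6 was higher in somatic-high cells in 4 of 4 pools (median log2 difference 2.77), for example at 30.3 against 0.934 CPM in D9A. On D13 and D15 it was higher in pluripotency-high cells in 4 of 4 pools (median -1.04), at 2.24 against 5.52 CPM in D13A, 2.22 against 4.30 in D13B, 0.340 (1 UMI) against 3.15 in D15A and 1.84 against 4.04 in D15B. CXCL3 was higher in somatic-high cells in 3 of 4 pools on D9 and D11 and in pluripotency-high cells in 4 of 4 pools on D13 and D15, at 1.02 (3 UMIs) against 5.39 CPM in D15A and 4.76 against 5.67 in D15B. PF4, a platelet chemokine of the same chromosome 4 cluster, was higher in pluripotency-high cells in 8 of 8 pools, and CXCL5 in 4 of 8. CXCL2, whose sequence is close to that of CXCL3, kept to the somatic-high cells, with a median of 9.59 against 0.421 CPM on D13 and D15.

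**Figure D5:**
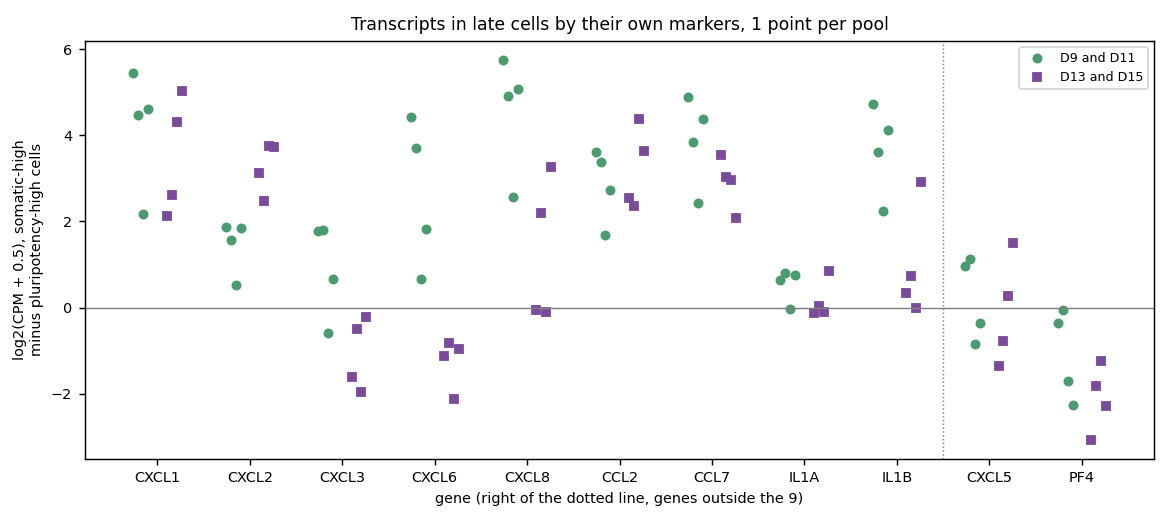
Difference of log2(CPM + 0.5) between somatic-high and pluripotency-high cells for the 9 genes, with CXCL5 and PF4 of the same cluster, 1 point per pool (circles D9 and D11, squares D13 and D15). CXCL6 and CXCL3 lie mostly above 0 on the earlier days and below 0 on the later ones, while CXCL1, CXCL2, CCL2 and CCL7 lie above 0 in each of the 8 pools.

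UMIs in droplets can come from RNA set free by other cells, so the shares were set side by side. In D9A, CXCL1 was detected in 21.1% of somatic-high cells (median of 52982 UMIs before thinning) and in 4.71% of pluripotency-high cells (72922 UMIs), and CXCL8 in 8.93% and 1.18%. In D15B, CXCL1 was detected in 11.3% of somatic-high and 1.30% of pluripotency-high cells, while CXCL6 was detected in 1.41% and 2.60%. The pluripotency-high cells had more UMIs in each of the 8 pools, and the part of free RNA in their low shares was not tested.

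The receptors of these chemokines had few UMIs. CXCR1 was highest at 0.0178 CPM (D9B), CXCR2 at 0.454 CPM (D13A) and CCR2 at 0.0060 CPM (D0A). Of 22 chemokine receptors 2 were tested (median log2 -1.58, against -0.02 over all genes) and 1 fell from D0 to the mean of D3 to D7, where 20.4% of tested genes were called lower. It was ACKR4 (-2.76, SE 0.23), a scavenger of CC chemokines. CXCR4, the receptor of CXCL12, was at 0 CPM on D0 and at 10.8 ± 6.02 CPM on D15 (mean ± SD, n = 2 pools). IL1R1 was at 31.2 ± 2.43 CPM on D0, 13.8 ± 2.50 on D5 and 1.25 ± 0.195 on D15, so that its level was below that of D0 when IL1B was highest. The antagonist IL1RN was highest at 0.353 CPM (D0B).

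The lists that follow were read in the same comparison, where 19.6% of all tested genes were called higher and 20.4% lower. Of 26 other genes of the interleukin 1 family and its signalling, 11 were tested (median -0.34), 1 rose and 4 fell. IL1RAP, the partner of IL1R1, rose by 0.87, whereas IL1R1 (-1.83, SE 0.25), the kinase IRAK4 (-1.47), the cytokine IL18 (-1.23) and the inhibitory receptor SIGIRR (-0.93) fell. Of 11 NF-kB subunits and kinases (median -0.25) none rose and IKBKB fell (-0.96, SE 0.17). Of 10 tested NF-kB feedback genes (median 0.16), NFKBIB (1.63), NFKBIE (1.21) and IER3 (1.09) rose and NFKBIZ (-1.35) fell. NFKBIA was at 50.2 ± 0.172 CPM on D0 and 76.8 ± 6.55 on D5. Of 29 other chemokine ligands 7 were tested (median 3.41), and CCL11 (7.48, SE 0.68), PF4 (6.15, SE 0.40), CXCL5 (4.60, SE 0.45) and CXCL14 (3.41, SE 0.29) rose while CXCL12 (-2.48) and CCL26 (-1.39) fell. CCL11, an attractant of eosinophils and a neighbour of CCL7 on chromosome 17, was like the 9 genes highest on D5, at 17.9 ± 2.93 CPM.

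Outside the 9 genes, those most like CXCL8 over the 16 pools, by the correlation of log2(CPM + 1), were CSF3 (r = 0.97), ZBED1 (0.89), TRIB2 (0.89), CHST2 (0.88) and IMMP2L (0.88). Outside the 9 genes, IL1B was most like CSF3 (0.94), MMP3 (0.84), CCDC71L (0.82), NFKBIA (0.81) and IQCD (0.81). CSF3 encodes G-CSF, the growth factor of neutrophils, and it led both lists at a highest level of 11.4 CPM. Among the 9 genes, CXCL8 was most like CCL7 (0.94), CXCL1 (0.94) and IL1B (0.92) and least like CXCL2 (0.49), and IL1B was most like CXCL8 (0.92), CCL7 (0.88) and IL1A (0.84) and least like CXCL2 (0.40). Within cells of D3 to D7, the genes with the highest median correlation with the sum of the 9 genes were LGALS1 (0.33), S100A6 (0.32), CAV1 (0.31), COL6A1 (0.31), COL6A2 (0.30), S100A11 (0.29), B2M (0.29), NFKBIA (0.28), ASS1 (0.27) and POU2F2 (0.27). The correlations are descriptions over pools or cells that share libraries, and no p was computed for them.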

How the data were processed

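Single-cell RNA-sequencing (10x Genomics, 3' ends) was analysed for 22 libraries. The authors deposited raw counts, UMIs per gene and cell barcode, made with Cell Ranger 2.2 per the submitters' processing notes, on hg38 with a GRCh38 annotation, for barcodes that Cell Ranger had called cells. Libraries of a pool were summed to 16 pools (33181614 to 180056814 UMIs) after barcodes with fewer than 1000 genes or over 10% mitochondrial UMIs were left out. No doublet caller was run, and an alternative left out the 3% of cells (1270) with the most UMIs.

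Fold changes came from edgeR 4.0.16 in R 4.3.3 (TMM, quasi-likelihood test, 1 fit of all pools, genes detected in at least 5% of cells with each day weighted equally, Benjamini-Hochberg adjustment), which was tested on simulated data. Python 3.11.15 with scipy 1.17.1, numpy 2.4.6 and pandas 2.3.3 gave shares and co-detection from cells thinned to 5000 UMIs, which every cell reached, with exact binomial intervals at 95%. A limit for 0 rests on 3 counts. Figures were drawn with matplotlib 3.10.9. Positions were taken by gene identifier from the GENCODE annotation of GRCh38.

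The 9 genes were named in every comparison, and of other lists at most 4 genes called from D0 to the mean of D3 to D7, by fold. IL1RAP, CXCL12, CCL26 and genes given for their levels alone were added after their values were seen. By likeness, 5 genes over pools (at 10 CPM or more in a pool) and 10 within cells were named. The 9 genes and the lists were chosen with earlier results of these data known. Fits were repeated with DESeq2 1.42.0, with its size factors, without the filter on genes or on cells, on thinned sums, with pool letters as a replicate block, on the compared days alone, at a looser threshold and with each pool left out. Shares of cells were repeated at other depths, and the comparison of cells with several of the 9 genes at 10000 UMIs per cell and at other numbers of genes per cell. The use of single libraries, NME2 as a covariate and the split of late cells were chosen after seeing the data.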

Additional observations from a re-analysis of the deposited data

Results flagged for a closer look

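Cells with at least 2 of the 9 genes differed from cells with none by more in D9 to D15 than in D3 to D7, by 1.01 (log2) for somatic markers and by -0.92 for pluripotency markers, each past the exact permutation test of the difference with all 12 pools. This test counts the 2 pools of a day as separate replicates, so that its p can be too small. Pluripotency markers summed to 228 to 886 CPM on D3 to D7 and to 2442 to 4637 CPM on D9 to D15 (means of the days). The part of this change in the larger later differences was not tested. With any 1 pool left out the differences were 0.88 to 1.15 and -1.12 to -0.75, and the p adjusted over 12 tests missed 0.05 (lowest 0.0519). The unadjusted exact p for somatic markers was 0.00433 throughout and that for pluripotency markers 0.00866 to 0.0519. The somatic p is set by the number of splits of the pools that remain, as the periods did not overlap, so that its miss is no measure of a weaker difference. The difference of pluripotency markers was also lost when 1 gene was enough for a cell to count and at 10000 UMIs per cell. CXCL6 pointed to somatic-high cells on D9 and D11 (median log2 2.77) and to pluripotency-high cells on D13 and D15 (median -1.04) in every pool, and this difference between the days was not tested. D7B stood apart from the other 5 pools of D3 to D7 in the pluripotency markers of cells with at least 2 of the genes (-1.24, against -0.78 for the mean of 6 pools). Such a gap comes up by chance in about 1 of 20 groups, and 8 groups were examined. The barcodes that the cell filters left out held the 9 transcripts at 411 CPM in D5A and 595 CPM in D5B, against 18.8 and 11.9 CPM in the left-out barcodes of D0.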

How the results depend on the processing

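The pools carry letters that the labels do not tie to a shared batch or day. Over 7052 genes the deviations of pools with the same letter correlated between -0.434 and 0.844 over 28 pairs of days, 10 above 0.1 and 11 below -0.1, so that they were not taken as pairs. They correlated at 0.492 to 0.844 among D3, D5, D9 and D13 and at 0.218 to 0.451 among D0, D7 and D11, so that pools share structure across some days, whose source was not tested. With the letter as a replicate block the same numbers of the 7 tested genes were called in all 10 comparisons, from 0 from D7 to D9 to 7 from the early to the late mean.

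The number called moved by over 1.5 times as follows, with the number over all 12944 tested genes in brackets (3275, 486, 268, 971, 404 higher with 164 lower, 19 and 11 for the steps from D0 to D15, and 6877 for D0 against D15, as reported). Only the pools compared gave 0 for D0 against D3 (0, with CXCL1 at 5.23 and adjusted p = 0.0103), 0 for D3 against D5 (41) and 4 for D5 against D7 (165). DESeq2 gave 2 for D5 against D7 (624), 1 from D7 to D9 (1703), 3 from D9 to D11 (1250), 2 from D11 to D13 (492) and 1 from D13 to D15 (657). NME2 as a covariate gave 3 (591), 1 (1875), 2 (396) and 1 (558) from D5 to D7, D7 to D9, D11 to D13 and D13 to D15. An adjusted p below 0.05 gave 7 for D3 against D5 (957), 3 for D5 against D7 (580), 1 from D7 to D9 (1852), 2 from D11 to D13 (336) and 1 from D13 to D15 (513). No filter on genes, which also tests CXCL2 and IL1A, gave 8 (831), 5 (498), 1 (1904), 4 (1470), 4 (344) and 1 (531) from D3 to D5 onwards, of 29281 genes, and no filter on cells 1 from D7 to D9 (984). The first libraries alone gave 3 from D7 to D9 (1079), 0 from D9 to D11 (378) and 2 from D0 to D15 (6299), and the second libraries alone 0 from D5 to D7 (224) and 2 from D9 to D11 (588). With single pools left out, 3 to 6 were called for D0 against D3, 3 to 4 for D3 against D5, 0 for D5 against D7, 0 to 1 from D7 to D9, D9 to D11 and D13 to D15, 1 to 4 from D0 to D15, 6 to 6 from D0 to the early mean and 6 to 7 from the early to the late mean. The log2 differences from D7 to D9 reversed with the first libraries, to -0.83 for CXCL8 and -0.33 for IL1B. Where fewer pools or more genes did not set the change, the cause was not tested.

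Of the cells with the transcripts, the tests by exact permutation were lost, with fewer pools, for at least 3 genes per cell. The log2 values there were 0.48 and 1.52 (difference 1.04) for somatic markers, -0.99 and -2.76 (-1.77) for pluripotency markers, -1.02 and -1.30 for cell cycle genes and 1.64 and 2.01 for NF-kB feedback genes. With the first libraries they were 0.50 and 1.48 (0.99), -0.80 and -1.30 (-0.50), -0.70 and -0.92, and 1.11 and 1.5. The difference of pluripotency markers was also lost for at least 1 gene (-0.19) and at 10000 UMIs (-0.49). With 1 pool left out, somatic markers were at 0.42 to 0.48 and 1.33 to 1.60 (difference 0.88 to 1.15), pluripotency markers at -0.82 to -0.69 and -1.90 to -1.53 (-1.12 to -0.75), cell cycle genes at -0.80 to -0.61 and -1.04 to -0.92, and NF-kB feedback genes at 1.05 to 1.25 and 1.5 to 1.74. The depth limits genes such as IL1A, with few UMIs per pool. Of the other values, with all pools in, the log2 fold changes of the genes kept their direction and side of the threshold 396 times, passed it 18 times and missed it 16 times, and shares of cells moved by more than the SD of the pools 187 times, with 101 that did not.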
